A study of Mus musculus with 24 samples.

Results

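The subunits of the mitochondrial respiratory chain were followed in mouse embryonic stem cells (ESCs), in expanded potential stem cells (EPSCs) derived from them, and in EPSCs in which Oct4, Sox2 or Nanog was shut off. Members were taken by name: the Ndufa, Ndufb, Ndufc, Ndufs and Ndufv genes without the Ndufaf assembly factors, Sdha to Sdhd, the Uqcr genes, the Cox4 to Cox8 subunits, the Atp5 genes and the protein-coding genes of mitochondrial DNA. Names marked as pseudogenes and predicted genes were dropped, and a mean of at least 10 normalised reads over the columns of a table was required. Of 23095 genes listed for the J1 line, 101 had such a name and 91 reached that mean, and of 25476 genes listed for the tet-off lines, 103 had such a name and 93 reached it. The 10 names below the mean in the J1 table were Cox4i2, Cox6a2, Cox6c2, Cox7b2, Cox8c, Ndufb4c, Ndufs6b, mt-Atp8, mt-Nd3 and mt-Nd4l. In the tet-off table Cox4i2 and Cox7b2 reached the mean, and Cox8b and Ndufa11b joined the list below it. The members held 37 nuclear and 5 mitochondrial genes of complex I, 4 nuclear genes of complex II, 8 nuclear genes and mt-Cytb in complex III, 15 (J1) or 17 (tet-off) nuclear and 3 mitochondrial genes of complex IV, and 17 nuclear genes and mt-Atp6 in complex V.

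The respiratory chain moves electrons from NADH (through complex I) or succinate (through complex II) by way of complex III to oxygen at complex IV, and the proton gradient built on the way drives ATP synthesis at complex V. Every complex except complex II is assembled from subunits of both genomes: the nuclear genes are transcribed singly, whereas mitochondrial DNA is transcribed as long polycistronic RNAs that are cleaved at tRNAs and polyadenylated. ESCs in culture rely heavily on glycolysis, and respiratory capacity changes as pluripotent cells move between states.

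Poly(A) RNA was sequenced from 24 libraries in 12 groups of 2. J1 is a wild-type ESC line, grown in serum with LIF and 2i (CHIR99021 and PD0325901) on embryonic fibroblast feeders or gelatin. From it came D-EPSCs, kept in N2B27 with LIF, CHIR99021, dimethindene maleate and minocycline, and L-EPSCs, kept in serum replacement with LIF, CHIR99021, PD0325901, A-419259, XAV939, JNK inhibitor VIII and SB203580. In the Oct4cKO (ZHBTc4), Sox2cKO (2TS22C) and NanogcKO (NgcKO) lines the endogenous gene is deleted and a tet-off transgene supplies the factor. Each of these lines was profiled as ESCs, as L-EPSCs without doxycycline (Dox) and as L-EPSCs with Dox, which shuts the transgene off. Each genotype is a single established line, all 3 groups of a tet-off line carry the same deletion and transgene, and no line without a transgene received Dox, so the drug and the fall of the factor cannot be told apart. Dox and minocycline are both tetracyclines, a class known to bind the mitochondrial ribosome. Whether the 2 libraries of a group came from separate cultures was not stated, so the p-values below measure the spread between libraries, which may be technical.

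The total per library was 11612919 to 15069899 reads for J1 and 10807631 to 14798984 for the tet-off lines. Reads of genes on mitochondrial DNA made up 1.45 to 2.73% of a library and the members 2.57 to 3.80%. The targeted genes were lower with Dox in the lines labelled for them, Nanog only in part. Pou5f1 (Oct4) was at 6420 and 6316 normalised reads in Oct4cKO L-EPSCs without Dox against 162 and 184 with Dox, Sox2 at 4966 and 4701 against 47.0 and 53.1 in Sox2cKO L-EPSCs, and Nanog at 9119 and 8847 against 3166 and 3112 in NanogcKO L-EPSCs. The Nanog change there was -1.52, against -3.41 with Dox in Oct4cKO and -3.48 in Sox2cKO (SE 0.04). ESC markers (8 genes) were present in every group. All 8 fibroblast markers were also found in every J1 group, with a summed level of 92480 to 94595 normalised reads in ESCs, 57362 to 57473 in D-EPSCs and 19209 to 19706 in L-EPSCs. The summed level of 7 macrophage markers in the same groups was 2448 to 2451, 19534 to 19683 and 15440 to 15503. According to the methods both EPSC states were kept without feeders for several passages before RNA was taken. The sums move with every J1 comparison below, but single markers did not all follow them. From ESCs to D-EPSCs and to L-EPSCs, Col1a1 changed by -1.19 and -2.59, but Dcn by 1.35 and -0.02. Adgre1 changed by 3.25 and 2.57, whereas Cx3cr1 was at 3 reads or fewer in both EPSC states. The part of these markers in the results was not tested. In the tet-off table the fibroblast sum was 96.5 to 679, with Col3a1, Dcn and Lum at 3 reads or fewer in every library. In bulk RNA, fewer cells of a type and less RNA per cell cannot be told apart.

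The mitochondrial genes fell into a set with very many reads and a set with almost none. Per kilobase of gene, mt-Co1 (the catalytic core of complex IV) had 88335 normalised reads on average in J1 and 75018 in the tet-off lines, mt-Cytb (the cytochrome b of complex III) had 42790 and 27282, and mt-Nd6 (a complex I subunit and the only protein-coding gene on the opposite strand) had 1369 and 1707. The neighbouring genes mt-Co2, mt-Atp8, mt-Atp6, mt-Co3, mt-Nd3 and mt-Nd4l had 6.03 to 86.5. These 6 genes lie within a stretch of chromosome M (positions 6390 to 11042 in NCBIM37, mm9) that is repeated in the nuclear genome on the minus strand of chromosome 1, at chr1:24618374-24623027, with 99.936% identity over 4654 bases, 2 mismatches and 1 gap base. A read that falls wholly inside the stretch has more than a single best position. Of all 150-base windows, the copy held 98.5 to 100% in those 6 genes, 59.2% in mt-Nd4, 23.6% in mt-Co1 and none in mt-Nd1, mt-Nd2, mt-Nd5, mt-Nd6 or mt-Cytb. The values of mt-Co2, mt-Atp6 and mt-Co3 are therefore uncertain, and those of mt-Nd4 cover part of the gene. Some medians are also given without the 3 members inside the copy, whereas the counts of members include them.

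**Figure D1:**
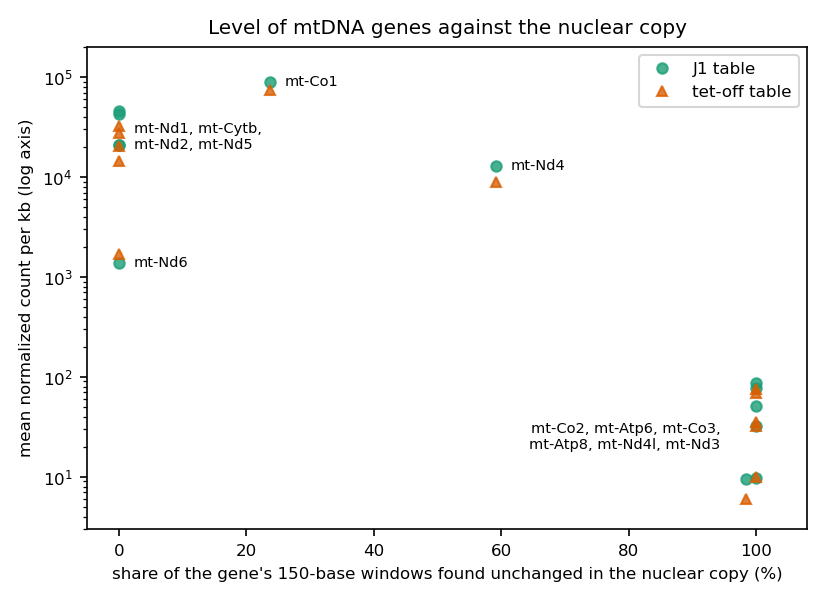
Mean normalised reads per kilobase of the 13 protein-coding mitochondrial genes (log axis) against the share of 150-base windows of each gene that lies within the chromosome 1 copy (percent). The 6 genes of which 98.5 to 100% lies in the copy sit between 6.03 and 86.5 reads per kilobase in both tables, and the others sit at 1369 or above.

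The first 90 bases of mt-Co2 in both places are shown to make the ambiguity visible (lower case throughout, since no base differs). For contrast, the first 90 bases of mt-Cytb are set beside a second nuclear copy, on the plus strand of chromosome 4 at chr4:79649893-79649982, with the 6 bases that differ in capitals. That copy as a whole had 93.0% identity over 2875 bases and spans mt-Cytb, mt-Nd6 and part of mt-Nd5. Closer copies lie on chromosome 2 (97.4% over 3260 bases, chrM:4441-7699, with all of mt-Co1) and chromosome 13 (95.2% over 955 bases, chrM:12446-13400, within mt-Nd5). A base that differs can place a read, but the placement of reads was not tested. All are from NCBIM37 and read 5′ to 3′ along the gene.
mt-Co2, chrM:7013-7102: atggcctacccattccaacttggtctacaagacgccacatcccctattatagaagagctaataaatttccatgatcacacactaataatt
mt-Co2 copy, chr1:24622315-24622404: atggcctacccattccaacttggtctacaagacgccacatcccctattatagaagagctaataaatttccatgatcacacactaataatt
mt-Cytb, chrM:14145-14234: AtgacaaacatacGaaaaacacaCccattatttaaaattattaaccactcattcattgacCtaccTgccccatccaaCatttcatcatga
mt-Cytb copy, chr4:79649893-79649982: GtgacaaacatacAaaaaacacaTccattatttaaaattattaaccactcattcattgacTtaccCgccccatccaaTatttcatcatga

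Among the nuclear members, levels per kilobase of exon differed by complex. The median was 619 normalised reads in complex I, 751 in complex II, 1270 in complex III, 3025 in complex IV and 1447 in complex V in J1, and 628, 658, 1185, 3326 and 1302 in the tet-off lines (paralogues and Ndufb11b left out). The highest nuclear member in both tables was Cox4i1, the ubiquitous form of subunit 4 of cytochrome c oxidase, with 7517 and 6852 per kilobase. Next came Atp5b, the catalytic beta subunit of ATP synthase, as the highest of complex V, with 5533 and 5395.

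Respiratory chain promoters are known for sites of NRF1, YY1, the oestrogen-related receptors (ERR) and Ets-family factors. RefSeq promoter sequences (GRCm38.p6, 250 bases before to 50 after the start) matched 68 of the 83 nuclear members. A gene counted where any of its promoters matched on either strand. GCGCATGC (NRF1) was present in 10 of them, or 14.7%, against 3.05% of all 27025 genes with a promoter. AAGATGGCG (YY1) was present in 7 or 10.3% against 1.64%, and ACCGGAAG (Ets) in 7 or 10.3% against 2.60%. TCAAGGTCA (ERR) was present in 2 or 2.94% against 0.466%. At least 1 of the 4 motifs was present in 24 members, and none of these letter strings contains another. The promoters of Sdhd, Ndufs8 and Ndufa6, each called in at least 1 conversion below, are shown along the gene's strand with the match in capitals: an Ets match followed by an ERR match in Sdhd, an Ets match in Ndufs8 and an NRF1 match in Ndufa6, all on the strand opposite to the letters above. A match describes the letters only.
Sdhd, chr9:50603800-50604099: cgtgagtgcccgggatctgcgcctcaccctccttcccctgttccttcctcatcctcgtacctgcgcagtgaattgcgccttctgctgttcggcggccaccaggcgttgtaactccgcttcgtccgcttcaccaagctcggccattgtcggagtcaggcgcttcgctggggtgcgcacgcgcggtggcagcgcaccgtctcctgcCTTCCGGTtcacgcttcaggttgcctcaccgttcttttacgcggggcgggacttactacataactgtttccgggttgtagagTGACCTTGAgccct
Ndufs8, chr19:3912725-3913024: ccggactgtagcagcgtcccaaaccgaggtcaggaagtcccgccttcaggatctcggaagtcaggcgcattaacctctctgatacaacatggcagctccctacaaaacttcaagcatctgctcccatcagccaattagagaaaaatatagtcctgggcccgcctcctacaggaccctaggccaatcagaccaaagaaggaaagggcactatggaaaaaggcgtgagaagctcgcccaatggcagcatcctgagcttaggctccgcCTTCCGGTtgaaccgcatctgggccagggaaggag
Ndufa6, chr15:82354242-82354541: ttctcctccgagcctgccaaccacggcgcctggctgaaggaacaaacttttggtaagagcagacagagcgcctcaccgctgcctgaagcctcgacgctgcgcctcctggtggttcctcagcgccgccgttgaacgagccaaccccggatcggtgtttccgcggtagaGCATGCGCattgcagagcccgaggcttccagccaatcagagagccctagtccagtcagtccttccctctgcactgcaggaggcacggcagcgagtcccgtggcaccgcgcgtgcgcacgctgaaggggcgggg

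The balance of the genomes was read in each library as mitochondrial member reads per 1000 nuclear member reads. In J1 it was 2248 and 2164 in ESCs, 2069 and 2112 in D-EPSCs and 2087 and 2170 in L-EPSCs. The J1 values of ESCs and L-EPSCs overlapped. In the tet-off lines the balance was lower in L-EPSCs without Dox than in ESCs of the same line, and higher again with Dox. In Oct4cKO it was 1449 and 1498 in ESCs, 1154 and 1064 in L-EPSCs without Dox and 1829 and 1838 with Dox. In Sox2cKO it was 2090 and 2110, 1598 and 1442, and 2309 and 2222. In NanogcKO it was 1945 and 1924, 1295 and 1365, and 2041 and 2219. Within each tet-off line the L-EPSCs without Dox lay below the other groups with no overlap. An exact two-sided permutation test of 2 libraries against 2 cannot go below p = 0.333.

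**Figure D2:**
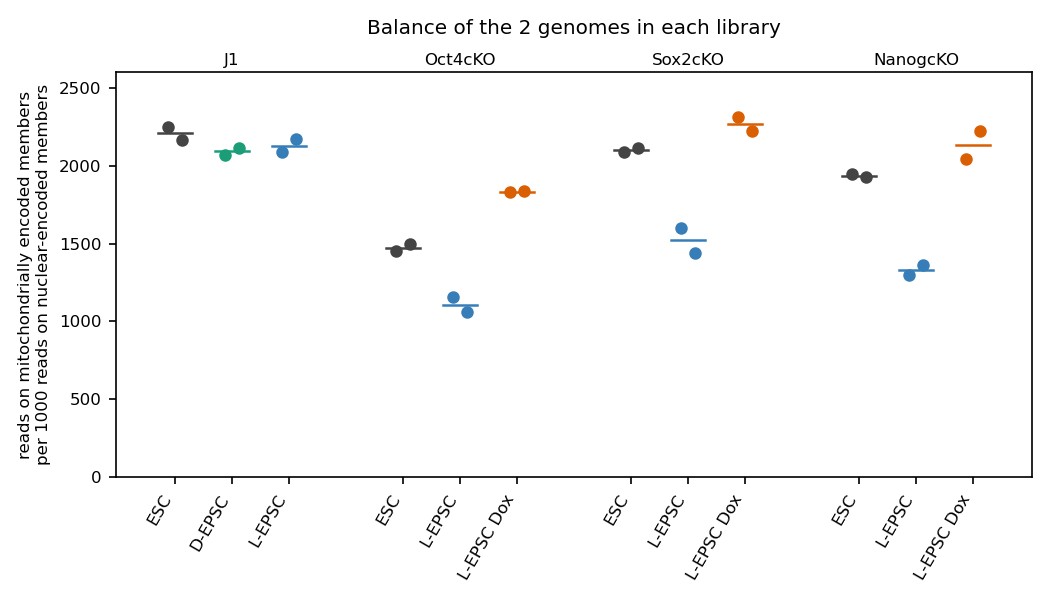
Reads of mitochondrially encoded members per 1000 reads of nuclear-encoded members, one point per library, with the mean of each group as a bar. In every tet-off line the 2 libraries of L-EPSCs without Dox (1064 to 1598) lie below the ESC and Dox libraries of that line, while the J1 groups lie between 2069 and 2248.

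A gene was called changed when its Benjamini-Hochberg adjusted p over all genes of the table was below 0.05 while its log2 fold change passed 0.6, in a limma fit on log2(normalised read count + 1) over all groups of the table. Log2 fold changes are on that scale, with their standard error (SE). Counts at the adjusted p alone are given too, since the size threshold lies above the change of most members.

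Conversion of J1 ESCs to L-EPSCs went with higher levels across the chain. Of 91 members 87 had a log2 fold change above zero, with a median of 0.30 for the nuclear and 0.34 for the mitochondrial members, while the median over all genes was 0.00. By adjusted p alone 67 members were higher and 2 lower, where 18.5% of all genes tested were higher and 20.9% lower. With the size threshold 13 members were higher and 0 lower (background 8.8% higher and 11.5% lower). The increase was spread evenly over the complexes, with medians of 0.28 for the nuclear genes of complex I, 0.28 for complex II, 0.34 for complex III, 0.30 for complex IV and 0.35 for complex V. Since members had to reach a mean of 10, the fairer reference is the 14255 genes with such a mean, of which 3728 were higher and 4102 lower by adjusted p alone.

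Cox7b, a small structural subunit of complex IV, had 1008 and 1196 normalised reads in J1 ESCs, 1367 and 1382 in D-EPSCs and 2112 and 1912 in L-EPSCs. Its L-EPSC libraries lay above all others, and its log2 fold change from ESCs was 0.87 (SE 0.08, adjusted p = 8.7e-05). Cox7a2, the ubiquitous form of subunit 7a, had 1028 and 1055 in ESCs, 1100 and 1233 in D-EPSCs and 1642 and 1653 in L-EPSCs. Again only the L-EPSCs stood clear, at 0.66 (SE 0.06, adjusted p = 5.9e-05). Ndufa1, a small membrane subunit of complex I, was at 256 and 265, 367 and 402, and 427 and 421. Both EPSC states lay above the ESCs, and the L-EPSC change was 0.70 (SE 0.08, adjusted p = 0.00024). Ndufa4, now assigned to complex IV, rose by 0.63 (SE 0.05) but only by 0.56 without ESC replicate 2. The other called members were Uqcrh (the hinge protein of complex III, 0.64), Ndufb3 (0.66), Ndufc2, Ndufa7 and Atp5e (each 0.61), Ndufb11 (0.60), mt-Nd6 (0.65) and the paralogues Cox6b2 and Ndufa4l2 described below. Ndufb3, Ndufc2, Ndufa7, Ndufb11 and Atp5e fell under the size threshold, to between 0.55 and 0.60, when a library was left out: ESC replicate 1 (all but Ndufb3), ESC replicate 2 (Ndufb3), L-EPSC replicate 1 (Ndufa7 and Ndufb11) or L-EPSC replicate 2 (Ndufb3 and Ndufc2).

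Sdha, Sdhb, Ndufs1, Ndufs3, Ndufa9, mt-Co1 and mt-Cytb stayed under the size threshold in J1 L-EPSCs. Sdha, the flavoprotein of complex II, had 3486 and 3414 normalised reads in ESCs, 3625 and 3674 in D-EPSCs and 4354 and 4334 in L-EPSCs. Its L-EPSC change was 0.33 (SE 0.03, adjusted p = 3.7e-05), whereas Sdhb, the iron-sulphur subunit, was at 1073 and 1068, 1252 and 1216, and 1126 and 1242, a change of 0.14 (SE 0.05) that did not pass. Ndufs1, the largest iron-sulphur subunit of complex I, was higher by 0.32 (SE 0.04) and Ndufa9, which sits near the ubiquinone site, by 0.32 (SE 0.04), both past the adjusted p but not the size threshold, and Ndufs3 had 0.16 (SE 0.06, adjusted p = 0.076). mt-Co1 was at 138729 and 132454 in ESCs, 119470 and 121041 in D-EPSCs and 151137 and 156038 in L-EPSCs. The 3 groups did not overlap, with D-EPSCs lowest and L-EPSCs highest (L-EPSC minus ESC 0.18, SE 0.02). mt-Cytb rose in the order ESC, D-EPSC, L-EPSC, from 42490 and 41239 through 48335 and 49909 to 54206 and 57528 (L-EPSC minus ESC 0.42, SE 0.03, adjusted p = 2e-05).

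D-EPSCs differed from ESCs much less. The medians were 0.08 for the nuclear and 0.12 for the mitochondrial members, 33 members were higher and 12 lower by adjusted p alone (background 18.7% and 19.3%), and 1 was called higher and 3 lower (background 10.8% and 9.98%). Without ESC replicate 1 a single call remained, 1 in place of 4. Nuclear genes of complex III lay mostly below zero, 7 of 8, with a median of -0.057, of which 2 were lower and 1 higher by adjusted p alone. Cox5a, a subunit that binds regulators on the matrix side of complex IV, was lower in both EPSC states: 2710 and 2750 normalised reads in ESCs, 1896 and 1970 in D-EPSCs and 2231 and 2346 in L-EPSCs. ESCs lay highest and D-EPSCs lowest with no overlap (D-EPSC minus ESC -0.50, L-EPSC minus ESC -0.26, SE 0.04). L-EPSCs and D-EPSCs compared directly gave 59 members higher and 0 lower in L-EPSCs by adjusted p alone (background 15.1% and 15.4%), with medians of 0.25 and 0.20, but only 2 called higher and 0 lower (background 4.8% and 8.58%). The J1 comparisons share libraries pairwise and are not independent.

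**Figure D3:**
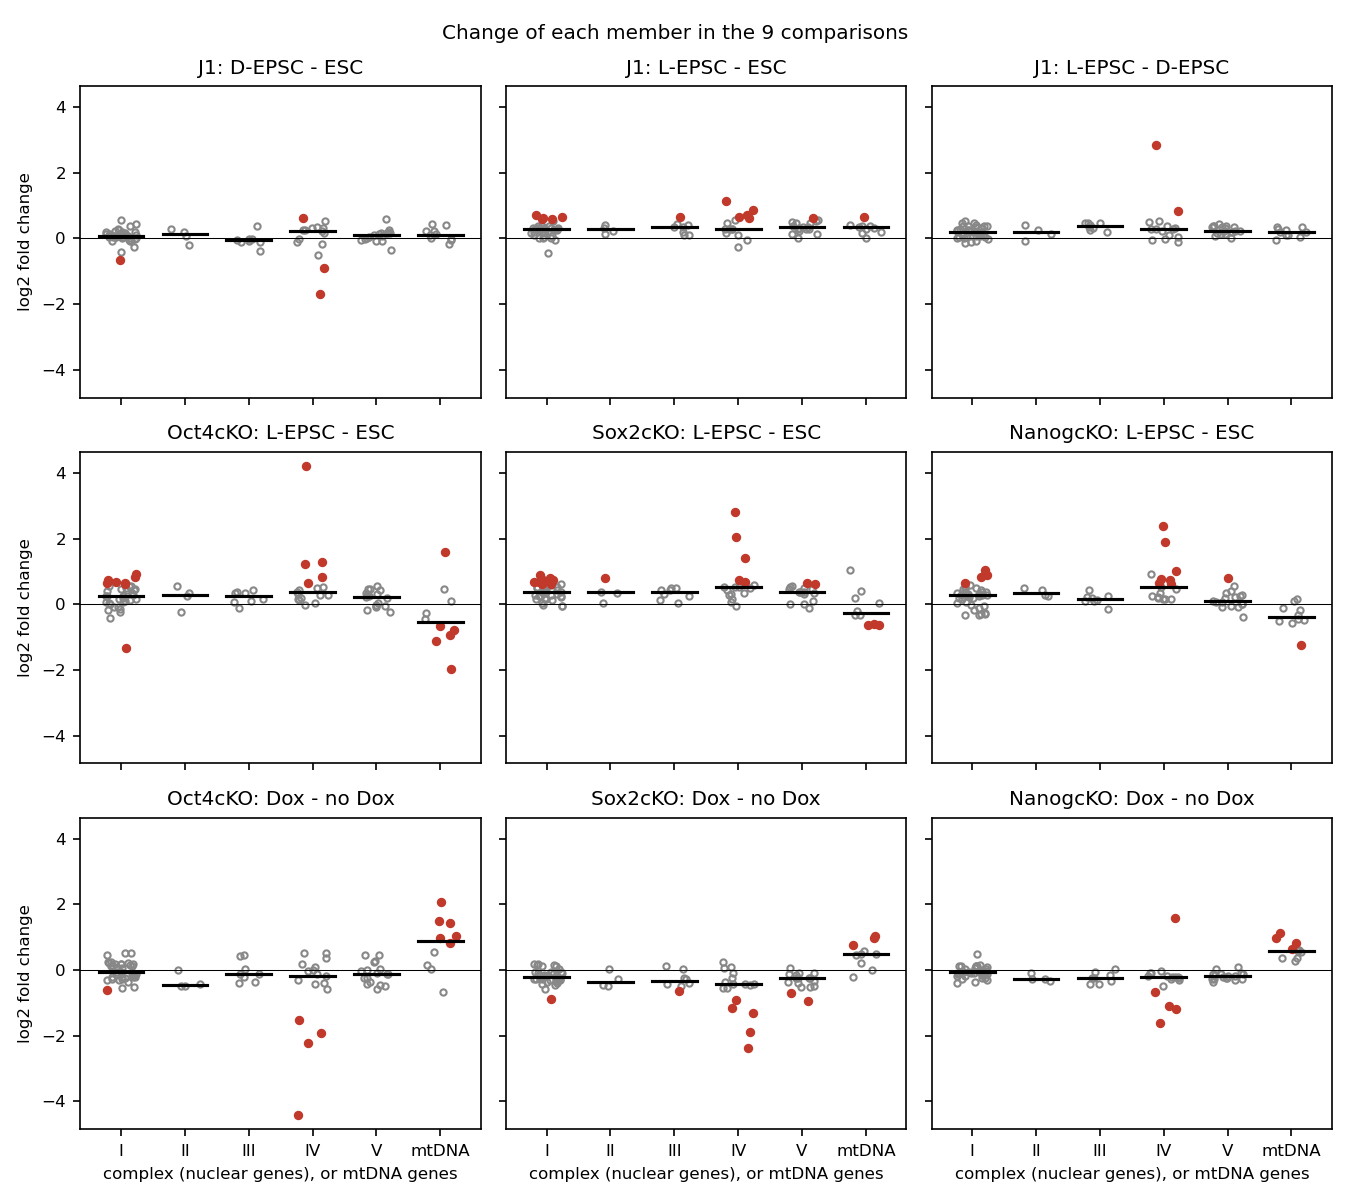
Log2 fold changes of all members in the 9 comparisons, one point per gene, grouped by complex and genome of origin, with the median of each group as a bar. Called members are filled points, the others are open points, and the thin line marks zero. The nuclear medians lie above zero in the L-EPSC conversions of all 4 lines (0.30, 0.29, 0.39 and 0.26) and below zero with Dox (-0.12, -0.26 and -0.14), the mitochondrial medians lie below zero in the tet-off conversions and above zero with Dox, and single members of either kind lie on both sides.

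Conversion of the tet-off ESCs to L-EPSCs went with higher levels of most nuclear members, while the mitochondrial medians lay below zero and mt-Co1 was higher. In Oct4cKO the nuclear median was 0.29 and the mitochondrial median -0.55, in Sox2cKO 0.39 and -0.27, and in NanogcKO 0.26 and -0.39. The median over all genes was 0.00 in each. By adjusted p alone 51 nuclear members were higher and 7 lower in Oct4cKO, 65 and 1 in Sox2cKO, and 55 and 7 in NanogcKO, out of 83. Mitochondrial members were higher in 3 and lower in 6 of 10 in Oct4cKO, 2 and 4 in Sox2cKO, and 1 and 4 in NanogcKO. The background at the adjusted p alone was 21.4% higher and 22.6% lower in Oct4cKO, 17.8% and 18.7% in Sox2cKO, and 20.8% and 21.9% in NanogcKO. Of the 14173 genes with a mean of at least 10, 4737 were higher and 4620 lower in Oct4cKO, 3958 and 3883 in Sox2cKO, and 4679 and 4489 in NanogcKO. In the same comparisons the summed ESC markers went from 73761 to 74445 down to 45623 to 46550 in Oct4cKO, from 59487 to 60320 down to 50307 to 50548 in Sox2cKO and from 81323 to 82788 down to 52601 to 53378 in NanogcKO. The trophoblast sum went from 2842 to 2856 up to 6019 to 6144 in Oct4cKO, from 7230 to 7286 down to 3575 to 3668 in Sox2cKO and from 1442 to 1453 up to 3044 to 3058 in NanogcKO. The sum of 7 primitive endoderm markers was 2429 to 2467 against 2494 to 2645 in Oct4cKO, 4108 to 4184 against 2500 to 2546 in Sox2cKO and 2508 to 2521 against 935 to 953 in NanogcKO. The part of these markers in the values of the members was not tested.

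With the size threshold, 12 nuclear members were higher and 1 lower in Oct4cKO (background 13% and 15.4%), 16 and 0 in Sox2cKO (7.99% and 11.6%) and 13 and 0 in NanogcKO (12.2% and 14.7%). Complex IV held 5, 5 and 7 of the higher calls out of 17 nuclear genes and complex I 7, 8 and 5 out of 37. Complex III had none in any line. By adjusted p alone 42 members were higher in all 3 lines, and 31 of them were higher in J1 as well, among them Cox4i1, Cox5b, Atp5a1, Atp5b, Ndufv2, Sdhc, Sdhd and Uqcrc2. Over all genes 10.1% were higher by adjusted p alone in the 3 tet-off lines (17% of those with a mean of at least 10), and 3.07% in all 4 lines (4.78%). No member was lower in all 4 lines by adjusted p alone, against 3.2% of all genes (4.93% of those with a mean of at least 10). Cox7a1, Cox7b2, Ndufa13 and Ndufa4l2 were called higher in all 3 tet-off lines. Cox7b2 reached the required mean mainly through L-EPSC libraries, so its higher calls, also counted above, were favoured by the selection. The gene mt-Cytb was called lower in all 3, though its Sox2cKO value of -0.61 came to -0.59 with TMM scaling and -0.58 in edgeR, under the size threshold. Over all genes 3.68% were called higher and 4.69% lower in all 3 lines.

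In complex I, Ndufs8, which carries iron-sulphur clusters of the electron path, had 416 and 425 normalised reads in Oct4cKO ESCs, 812 and 781 in L-EPSCs without Dox and 770 and 688 with Dox. In Sox2cKO it had 412 and 380, 711 and 749, and 652 and 651, and in NanogcKO 586 and 595, 830 and 815, and 770 and 730. The ESC libraries were lowest in every line, with no overlap, and the conversion changes were 0.92, 0.88 and 0.48 (SE 0.06). Ndufa13, also known as Grim19, was at 742 and 745 in Oct4cKO ESCs and 1145 and 1209 in the L-EPSCs, at 706 and 715 against 1187 and 1174 in Sox2cKO, and at 774 and 776 against 1448 and 1406 in NanogcKO. Its changes of 0.66, 0.73 and 0.88 (SE 0.05) passed in all 3 lines, whereas in J1 it stood at 1199 and 1244 before the conversion and at 1250 and 1248 after it (0.03, SE 0.04, adjusted p = 0.58). The tables of J1 and of the tet-off lines were normalised separately, and differences between them were not tested. Ndufb2 and Ndufb7, small subunits of the membrane arm, had their largest changes in NanogcKO, at 1.04 (SE 0.08, 145 and 155 against 324 and 295) and 0.92 (SE 0.06, 597 and 553 against 1123 and 1056). In J1 both failed the adjusted p (0.33 and 0.02). Ndufs1 fell in Oct4cKO by 0.43 and in NanogcKO by 0.30 (SE 0.04, both past the adjusted p only) and had -0.03 in Sox2cKO. Ndufs3 had 0.20, 0.42 and 0.17 (SE 0.08), past the adjusted p only in Sox2cKO, and Ndufa9 had 0.06, 0.26 and 0.39 (SE 0.05), past it in Sox2cKO and NanogcKO.

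In complex II, Sdhd, a membrane anchor of succinate dehydrogenase, had 801 and 829 normalised reads in Sox2cKO ESCs, 1392 and 1450 in the L-EPSCs and 1073 and 994 with Dox. The 3 groups did not overlap, and its conversion change of 0.80 (SE 0.07, adjusted p = 6.3e-08) was the only call of complex II. In Oct4cKO and NanogcKO it was 0.57 and 0.42. Sdhb was higher in all 3 lines, by 0.24, 0.36 and 0.50 (SE 0.05), whereas Sdha had -0.23, 0.04 and 0.26 (SE 0.04), lower in Oct4cKO and higher in NanogcKO by the adjusted p. In complex III the nuclear medians were 0.25, 0.38 and 0.17.

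In complex IV, Cox5a rose from 2410 and 2572 to 3879 and 3904 in Oct4cKO, from 2430 and 2168 to 3652 and 3758 in Sox2cKO and from 2799 and 2731 to 3580 and 3407 in NanogcKO. These changes of 0.64, 0.69 and 0.34 (SE 0.05) stand beside a fall by 0.26 in J1, and the Oct4cKO value fell to 0.60, under the size threshold, without ESC replicate 1. Cox7a2l, a factor that joins complexes III and IV into supercomplexes, was lowest in Oct4cKO ESCs at 572 and 607 and reached 1125 and 970 in the L-EPSCs (0.83, SE 0.06). In Sox2cKO and NanogcKO it changed by 0.52 each. Cox4i1 was called only in NanogcKO (0.66, SE 0.03, against 0.30 and 0.27). Cox6a1 was called only there too, at 0.62 (0.57 without replicate 1 of the L-EPSCs without Dox), against 0.51 in Oct4cKO and 0.54 in Sox2cKO. For neither gene was the difference between lines called.

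In complex V, the 3 genes of the c-ring (Atp5g1, Atp5g2 and Atp5g3, which encode the same mature protein) did not move as a block. Atp5g1 had 2036 and 1888 normalised reads in Oct4cKO ESCs against 1938 and 1822 in L-EPSCs, which overlapped, and 1225 and 1242 against 1824 and 1826 in Sox2cKO, which did not. Its changes were -0.06, 0.56 and -0.08 (SE 0.05), and Atp5g2 had 0.57, 0.48 and -0.05 (SE 0.05), while Atp5g3 had -0.08, 0.37 and 0.22 (SE 0.03). Atp5c1, the central stalk subunit gamma, was called in NanogcKO (0.79, SE 0.03) and Sox2cKO (0.64, SE 0.03). Atp5l, singled out after its values were seen, was the only nuclear member lower in all 3 lines by adjusted p alone (-0.23, -0.12 and -0.39, SE 0.04), and it was higher in J1 (0.53). Over all genes 9.41% were lower in all 3 lines by adjusted p alone (15.3% of those with a mean of at least 10).

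The largest changes belonged to alternative subunits, which replace a ubiquitous subunit in given tissues. Ndufa4l2, the hypoxia-inducible relative of Ndufa4, had 168 and 192 normalised reads in Oct4cKO ESCs, 439 and 439 in L-EPSCs without Dox and 18.4 and 21.1 with Dox. In Sox2cKO it had 89.9 and 115, 447 and 409, and 84.1 and 80.9, and in NanogcKO 187 and 202, 781 and 674, and 301 and 333. L-EPSCs without Dox were highest in every line with no overlap. The conversion changes were 1.28, 2.06 and 1.89 and the Dox changes -4.41, -2.36 and -1.19 (SE 0.13, adjusted p at most 3.1e-06), where both comparisons of a line share the libraries without Dox. In J1, Ndufa4l2 had 48.5 and 60.9 in ESCs, 16.3 and 15.7 in D-EPSCs and 104 and 144 in L-EPSCs. The 3 groups did not overlap, with changes of -1.70 to D-EPSCs, 1.15 to L-EPSCs and 2.86 from D-EPSCs to L-EPSCs (SE 0.26). The J1 change to L-EPSCs lost its call without ESC replicate 1 (0.99, adjusted p = 0.0975), without ESC replicate 2 (1.31, adjusted p = 0.0600) or without L-EPSC replicate 2 (0.92, adjusted p = 0.0759). As a share of Ndufa4l2 and Ndufa4 reads together it moved in Oct4cKO from 10.4 and 11.7% in ESCs through 20.9 and 21.0% to 1.07 and 1.26% with Dox, while Ndufa4 itself had 1457 and 1453, 1660 and 1654, and 1702 and 1649 reads. The partner gene changed by 0.19 and 0.02 in the same comparisons.

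Cox7a1, the heart and muscle form of subunit 7a, had 158 and 126 normalised reads in Oct4cKO ESCs, 335 and 332 in L-EPSCs without Dox and 73.7 and 68.8 with Dox. In Sox2cKO it had 114 and 106, 284 and 306, and 136 and 126, and in NanogcKO 150 and 132, 300 and 272, and 134 and 134. L-EPSCs without Dox were again highest in each line, at conversion changes of 1.24, 1.42 and 1.02 and Dox changes of -2.21, -1.17 and -1.09 (SE 0.12). In J1 it had 92.6 and 86.7 in ESCs, 43.9 and 51.9 in D-EPSCs and 94.6 and 78.1 in L-EPSCs. Only the D-EPSCs stood apart (-0.89 from ESCs, SE 0.19, adjusted p = 0.0079), and ESCs and L-EPSCs overlapped (-0.06, adjusted p = 0.86). Leaving out a library took the D-EPSC call away in 3 of 4 cases: without D-EPSC replicate 1 (-0.78), ESC replicate 1 (-0.85) or ESC replicate 2 (-0.94), with adjusted p of 0.0692 to 0.0848. The L-EPSC minus D-EPSC call of 0.84 was likewise lost without D-EPSC replicate 1 (0.72), D-EPSC replicate 2 (0.95) or L-EPSC replicate 1 (0.70). Its partner Cox7a2 had 0.05, 0.17 and 0.15 in the tet-off conversions and 0.10, -0.44 and -0.10 with Dox.

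Cox6b2, the testis form of subunit 6b, followed a line-specific course. It had 576 and 569 normalised reads in Oct4cKO ESCs, 658 and 601 in L-EPSCs and 221 and 220 with Dox, and in Sox2cKO 605 and 550, 527 and 596, and 238 and 212. In both lines the Dox libraries lay far below the rest and the other groups were close together or overlapped. In NanogcKO it had 354 and 334 in ESCs, 639 and 528 in L-EPSCs and 596 and 491 with Dox, so that the ESCs were low and the L-EPSC groups overlapped. The conversion changes were 0.13, -0.04 and 0.75 and the Dox changes -1.51, -1.31 and -0.10 (SE 0.11). The difference of the Dox change between lines was itself called, at -1.40 for Oct4cKO minus NanogcKO and -1.21 for Sox2cKO minus NanogcKO (SE 0.15). In J1 Cox6b2 had 265 and 307 in ESCs, 453 and 424 in D-EPSCs and 482 and 465 in L-EPSCs. Both EPSC states lay above the ESCs, by 0.62 and 0.73 (SE 0.09), the former under the size threshold without D-EPSC replicate 1 (0.57) or ESC replicate 1 (0.51).

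Cox4i2, the lung and hypoxia form of subunit 4, stood at low counts: 34.5 and 41.6 normalised reads in Oct4cKO ESCs, 43.5 and 55.7 in L-EPSCs and 9.21 and 16.7 with Dox, then 24.2 and 16.5, 28.1 and 33.9, and 6.60 and 8.99 in Sox2cKO, and 20.9 and 29.1, 47.9 and 46.9, and 12.3 and 17.99 in NanogcKO. The Dox libraries were lowest in every line. The Dox changes of -1.90, -1.87 and -1.61 (SE 0.37) were called, and the conversion changes of 0.37, 0.60 and 0.91 were not. It never exceeded 1.05% of the reads of Cox4i2 and Cox4i1 together. Cox7b2, the testis form of subunit 7b, was nearly absent from ESCs, with 0 and 0.967 in Oct4cKO, 7.07 and 19.1 in Sox2cKO and 3.14 and 2.24 in NanogcKO. It reached 23.96 and 26.1, 97.2 and 78.8, and 17.04 and 19.4 in the L-EPSCs. No groups overlapped, and the conversion changes were 4.21, 2.80 and 2.39 (SE 0.44). The mean required of a member was reached mainly through L-EPSC libraries, so a higher call was favoured by the selection. The Sox2cKO call was lost when only the groups of the contrast were fitted. In Oct4cKO 1 read in ESCs stood against 56 in L-EPSCs, a ratio of 49.8 with a 95% interval of 8.57 to 2000 for counting error alone, so the fitted change depends on the pseudocount. In NanogcKO Cox7b2 went up further with Dox, to 50.9 and 61.8 (1.58), a call lost without Dox replicate 2 (1.44, adjusted p = 0.0943) or without replicate 1 of the L-EPSCs without Dox (1.49, adjusted p = 0.0795).

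**Figure D4:**
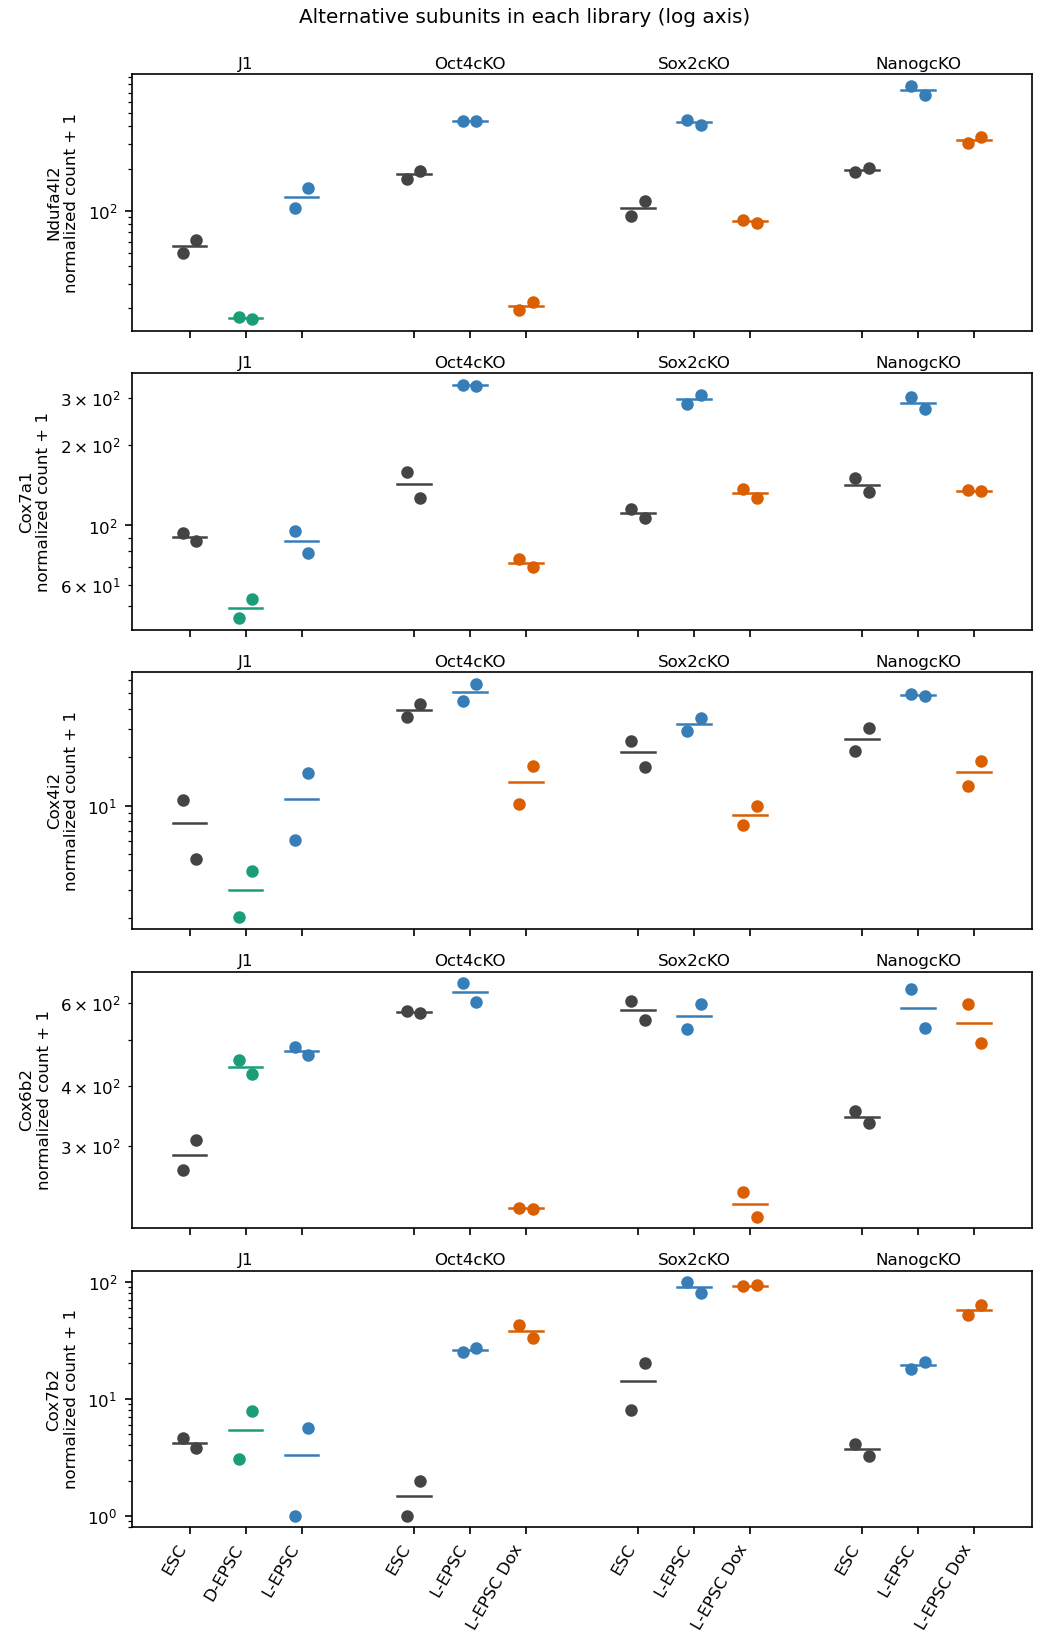
Normalised reads per library (log axis) of the alternative subunits Ndufa4l2, Cox7a1, Cox6b2, Cox4i2 and Cox7b2 in the 12 groups, one point per library. Ndufa4l2 and Cox7a1 peak in the L-EPSCs without Dox of each tet-off line (at least 409 and 272) and Cox6b2 falls to 212 to 238 with Dox in Oct4cKO and Sox2cKO but not in NanogcKO.

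Paralogues and Ndufb11b, a relative of Ndufb11, made up part of every list of calls. Of the 76 nuclear members that are neither, 0 were called in J1 D-EPSCs against ESCs, 10 higher in J1 L-EPSCs against ESCs and 0 in L-EPSCs against D-EPSCs, 8, 13 and 9 were higher in the Oct4cKO, Sox2cKO and NanogcKO conversions with none lower, and with Dox 1, 4 and 1 were lower with none higher. The shares over all genes stand above, at 8.8% higher in J1 L-EPSCs against ESCs, 13%, 7.99% and 12.2% higher in the conversions and 14.9%, 11% and 4.77% lower with Dox. Against these shares the counts are near or below the background except in the J1 and Sox2cKO conversions. Genes with a mean of at least 10 are the fairer reference, and shares of calls over them can be higher. For calls higher in all 3 tet-off conversions the share was 6.1% over such genes, against 3.68% over all genes. The J1 and Sox2cKO counts are therefore not read as an excess. For the D-EPSC comparison limma thus gave 0 calls there, with 27 higher and 8 lower at the adjusted p alone. The gene span of Ndufb11b matched the Ndufb11 transcript with 80.870% identity over 345 bases (NCBIM37). Its changes of -1.33 in the Oct4cKO conversion (79.5 and 74.5 against 23.96 and 37.7) and of -0.66 in J1 D-EPSCs stood beside 0.44 and 0.22 for Ndufb11. The J1 call was lost without D-EPSC replicate 1 (-0.55), without ESC replicate 1 (-0.58) and with scaling to nuclear reads (-0.596), and the Oct4cKO call when only the groups of the contrast were fitted.

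The abundant mitochondrial transcripts did not move together in the tet-off conversions. mt-Cytb had 43107 and 44359 normalised reads in Oct4cKO ESCs, 12094 and 10362 in L-EPSCs without Dox and 47725 and 47359 with Dox. In Sox2cKO it had 30490 and 30523, 21404 and 18604, and 40936 and 40523, and in NanogcKO 36958 and 37637, 15409 and 15916, and 32955 and 35418. L-EPSCs without Dox were lowest in each line with no overlap. Its conversion changes were -1.97, -0.61 and -1.25 and its Dox changes 2.09, 1.03 and 1.13 (SE 0.06), again with shared libraries. The Sox2cKO conversion value fell under the size threshold without replicate 2 of the L-EPSCs without Dox (-0.51). mt-Co1, from the same precursor strand, went the other way in the conversions: 74477 and 75652 in Oct4cKO ESCs, 105459 and 100825 in L-EPSCs and 103718 and 105509 with Dox, then 114325 and 114750, 132435 and 127305, and 130099 and 127664 in Sox2cKO, and 112003 and 111777, 123117 and 125516, and 144371 and 157259 in NanogcKO. ESCs were lowest in every line, with conversion changes of 0.46, 0.18 and 0.15 and Dox changes of 0.02, -0.01 and 0.28 (SE 0.03).

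Set in genome order, mt-Nd1, mt-Nd2, mt-Co1, mt-Nd4, mt-Nd5 and mt-Cytb changed in the Oct4cKO conversion by -0.27, 0.11, 0.46, -0.93, -0.79 and -1.97, a range of 2.42. In Sox2cKO the values were -0.33, 0.40, 0.18, -0.63, -0.62 and -0.61, and in NanogcKO -0.56, -0.12, 0.15, -0.50, -0.49 and -1.25. In all 3 lines the values after mt-Co1 lay below zero, each past the adjusted p except mt-Nd5 in NanogcKO, as did mt-Nd1, whereas mt-Co1 was higher. With Dox the same genes gave 0.82, 1.04, 0.02, 1.501, 0.54 and 2.09 in Oct4cKO, 0.20, 0.50, -0.01, 0.77, 0.57 and 1.03 in Sox2cKO, and 0.35, 0.83, 0.28, 0.99, 0.64 and 1.13 in NanogcKO. mt-Co1 had the smallest Dox change of the 6 in each line and mt-Cytb the largest. In J1 L-EPSCs against ESCs the 6 values were 0.02, 0.20, 0.18, 0.34, 0.33 and 0.42, without a lower gene.

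Calls of the other mitochondrial members leaned more on single libraries. mt-Nd4, a proton-pumping core subunit of complex I, had 10614 and 11110 in Oct4cKO ESCs, 6857 and 4720 in L-EPSCs and 16133 and 16071 with Dox. The groups did not overlap, at -0.93 and 1.501 (SE 0.13), of which the former lost its call when only the groups of the contrast were fitted. In Sox2cKO mt-Nd4 had 14102 and 13804, 10363 and 7809, and 16577 and 14123, and its changes of -0.63 and 0.77 fell to -0.43 and 0.56 without replicate 2 of the L-EPSCs without Dox. Both were also lost when only the groups of the contrast were fitted, and the conversion value in edgeR (-0.595). mt-Nd5, another pumping subunit, had 26103 and 26666 in Oct4cKO ESCs and 19738 and 11821 in L-EPSCs, and 35970 and 35767 against 29828 and 18268 in Sox2cKO. The lower L-EPSC library was replicate 2 in both lines. Without it the change went from -0.79 to -0.42 in Oct4cKO and from -0.62 to -0.27 in Sox2cKO, and neither passed. Leaving out Oct4cKO ESC replicate 2 (-0.77, adjusted p = 0.0554) or either Sox2cKO ESC library (-0.62, adjusted p = 0.133 and 0.128) also ended those calls, and the mt-Nd5 call with Dox in NanogcKO (0.64) was lost when any 1 of its 4 libraries was left out (0.57 to 0.70).

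mt-Nd6, on the opposite strand, had 711 and 1956 normalised reads in Oct4cKO L-EPSCs without Dox, 926 and 2054 in Sox2cKO L-EPSCs without Dox and 780 and 1798 in Sox2cKO L-EPSCs with Dox. Replicate 2 was far above replicate 1 in these 3 groups, whereas the ESC pairs were 423 and 354 in Oct4cKO and 662 and 666 in Sox2cKO. Per 1000 reads of mt-Nd5, whose end it overlaps on the other strand, mt-Nd6 had 166, 112 and 58.4 in those 3 libraries and 13.3 to 37.6 in all other tet-off libraries. The genes share only positions 13552 to 13565 of chromosome M, and mt-Nd6 reaches on to 14070. Whether strand was used in counting was not stated, so reads of that short overlap cannot be assigned. The source of the high values was not tested. The Oct4cKO conversion value of mt-Nd6 was 1.60 (SE 0.42), and 0.87 (adjusted p = 0.18) without replicate 2 of the L-EPSCs without Dox or 1.48 (adjusted p = 0.082) without ESC replicate 2. Leaving out the 3 libraries together, an alternative chosen after seeing the data, left mt-Cytb at -1.85 in the Oct4cKO conversion and 1.97 with Dox, and the mitochondrial median of the Oct4cKO conversion at -0.40. Of the 3 members inside the chromosome 1 copy, mt-Atp6 had -1.12, -0.21 and -0.33 in the conversions, mt-Co2 -0.67, 0.03 and -0.45, and mt-Co3 -0.43, -0.34 and 0.11, all at 19.2 to 71.1 normalised reads per library and all uncertain. Without them the mitochondrial medians were -0.27, -0.34 and -0.49.

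**Figure D5:**
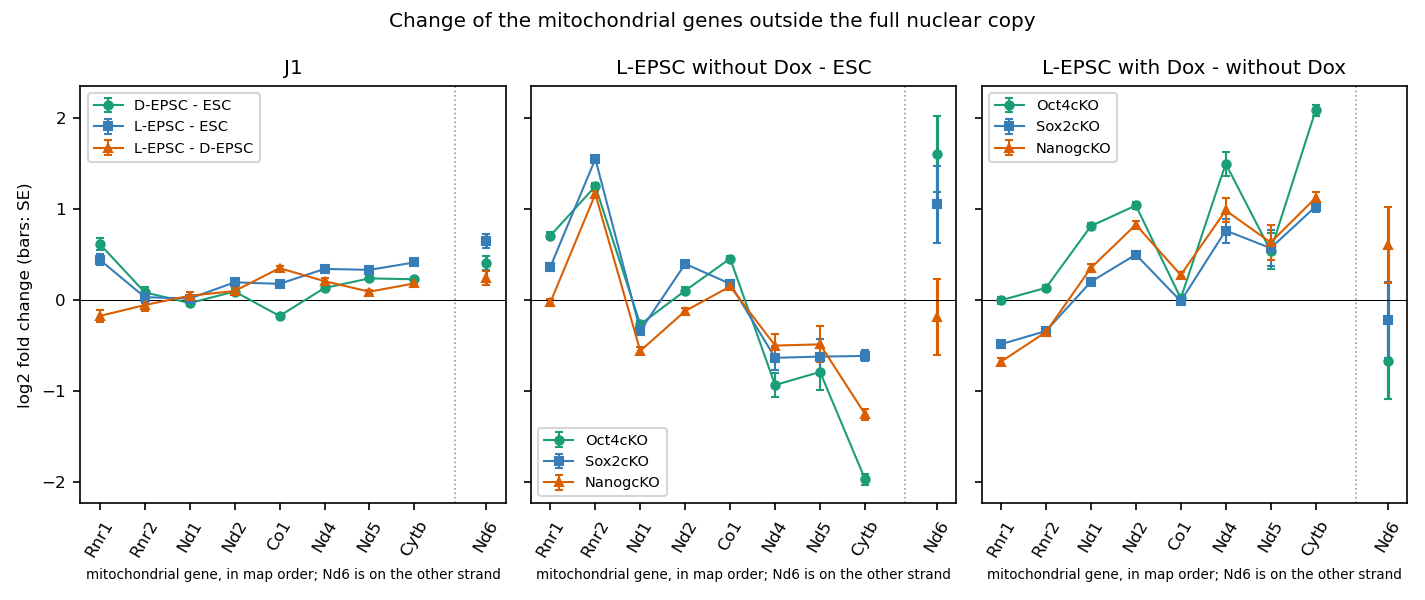
Log2 fold change with its SE of the mitochondrial rRNA genes and of the members outside the chromosome 1 copy, in genome order, for the J1 comparisons, the tet-off conversions and the Dox comparisons. In the tet-off conversions mt-Rnr2 is raised (1.25, 1.55 and 1.17) while mt-Cytb is lowered (-1.97, -0.61 and -1.25), and with Dox mt-Cytb is the highest of the strand.

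Dox, and with it the fall of the factor, went with lower nuclear and higher mitochondrial members in L-EPSCs. The nuclear medians were -0.12 in Oct4cKO, -0.26 in Sox2cKO and -0.14 in NanogcKO, and the mitochondrial medians 0.90, 0.50 and 0.59. The Oct4cKO nuclear median was -0.062 without Dox replicate 2, and the NanogcKO nuclear median -0.085 with scaling to nuclear reads. By adjusted p alone 20 nuclear members were higher and 36 lower in Oct4cKO, 5 and 55 in Sox2cKO, and 3 and 36 in NanogcKO. Of the 10 mitochondrial members 7, 6 and 6 were higher and none lower. The background was 21.4% higher and 22% lower in Oct4cKO, 19.8% and 19.9% in Sox2cKO, and 12.1% and 12.6% in NanogcKO, and of the 14173 genes with a mean of at least 10 the numbers were 4547 and 4699, 4233 and 4369, and 2717 and 2867. With the size threshold the nuclear calls were 0 higher and 5 lower, 0 and 9, and 1 and 4, and the mitochondrial calls 6, 3 and 4, all higher (background 13% and 14.9%, 12.2% and 11%, and 5.17% and 4.77%). Among these mitochondrial calls, mt-Co2 and mt-Atp6 in Oct4cKO and mt-Atp6 in Sox2cKO lie inside the chromosome 1 copy and are uncertain. In the same comparisons the summed ESC markers went from 45623 to 46550 down to 4940 to 5091 in Oct4cKO, from 50307 to 50548 down to 9223 to 9534 in Sox2cKO, and from 52601 to 53378 down to 31382 to 32776 in NanogcKO. The sum of 9 trophoblast markers went from 6019 to 6144 up to 32342 to 32944 in Oct4cKO and from 3575 to 3668 up to 15031 to 15060 in Sox2cKO, and was 3044 to 3058 against 2889 to 2899 in NanogcKO. The part of this shift in cell state in the values of the members was not tested.

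By adjusted p alone 23 members were lower with Dox in all 3 lines and 7 higher: mt-Cytb, mt-Nd1, mt-Nd2, mt-Nd4, mt-Nd5, Ndufs1 and Ndufa10 (named after its values were seen). Over all genes 4.81% were lower and 4.07% higher in all 3 lines (8.06% and 6.85% of those with a mean of at least 10). Ndufs1 rose by 0.14, 0.15 and 0.13 (SE 0.04). Called in all 3 lines were mt-Cytb and mt-Nd4 (higher) and Cox4i2, Cox7a1 and Ndufa4l2 (lower), where 1.45% of all genes were called higher and 1.53% lower in all 3. With only the groups of the contrast fitted, and so fewer libraries behind the spread, the calls of Cox4i2 in Oct4cKO and NanogcKO and of mt-Nd4 in Sox2cKO were lost. Outside the paralogues, Cox5a returned from its L-EPSC level to 2680 and 2496 in Oct4cKO, 1977 and 1931 in Sox2cKO and 2250 and 2188 in NanogcKO. The Dox libraries lay below those without Dox in each line, at -0.59, -0.92 and -0.65 (SE 0.05), of which the first missed the size threshold. In Sox2cKO 2 of the 17 nuclear genes of complex V were called lower, near the background of 11%: Atp5j2, subunit f of the membrane sector, went from 1892 and 1858 to 1014 and 935 (-0.94, SE 0.06), and Atp5g1 from 1824 and 1826 to 1132 and 1102 (-0.71, SE 0.05), against -0.45 and -0.42 in Oct4cKO and -0.23 and -0.38 in NanogcKO. The difference between Oct4cKO and Sox2cKO was called for neither gene. Uqcr10, a small subunit of complex III, fell there by 0.63 (0.58 without replicate 2 of the L-EPSCs without Dox). Ndufb11b fell by 0.87 in Sox2cKO, a call lost when any 1 of the 4 libraries was left out (adjusted p 0.0555 to 0.0698), and in Oct4cKO Ndufa7 fell by 0.61 (0.58 without replicate 1 of the L-EPSCs without Dox). Sdhb had -0.41, -0.27 and -0.34 (SE 0.05) and Sdhd -0.49, -0.46 and -0.27 (SE 0.07), while Sdha had 0.01, 0.04 and -0.09 and passed in no line. mt-Nd2, which rose by 1.04 in Oct4cKO and 0.83 in NanogcKO, had 0.50 in Sox2cKO (SE 0.04).

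Differences of these effects between lines were tested as interaction terms of the same limma fit. For conversion, 6 members differed between Oct4cKO and Sox2cKO (background 10%), 7 between Oct4cKO and NanogcKO (14.7%) and 3 between Sox2cKO and NanogcKO (14.8%). For Dox the counts were 5 (12.9%), 9 (22.6%) and 4 (18.3%). The shares of members were thus below the background in all 6. mt-Cytb differed in all 3 conversion comparisons (-1.35, -0.71 and 0.64, SE 0.09), and Ndufa4l2 in all 3 Dox comparisons (-2.05, -3.22 and -1.17, SE 0.18).

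Other genes of the pathway were taken from lists of assembly factors, mitochondrial ribosomal proteins, factors of mitochondrial DNA, regulators and neighbouring pathways. Of 77 mitochondrial ribosomal proteins, 8 were called higher and 1 lower in J1 L-EPSCs, 8 and 3, 7 and 0, and 7 and 6 in the tet-off conversions, and 14 and 0, 1 and 10, and 0 and 1 with Dox. Differences between lines were not tested for the list, and counts near the shares over all genes (8.8% and 11.5% in J1 L-EPSCs, 13% and 15.4%, 7.99% and 11.6%, and 12.2% and 14.7% in the conversions, and 13% and 14.9%, 12.2% and 11%, and 5.17% and 4.77% with Dox) are no result about this or the following lists. Mrps6 rose by 1.47 with Dox in Oct4cKO and Mrpl53 fell by 1.65 in Sox2cKO. Of 17 factors of mitochondrial transcription and maintenance, 3 were higher and 0 lower in J1 L-EPSCs, and 1 and 6, 0 and 1, and 0 and 3 in the tet-off conversions. Twnk, the mitochondrial helicase, fell by 1.48 in Oct4cKO and 1.11 in NanogcKO. With Dox 5 were higher and 1 lower in Oct4cKO, 0 and 1 in Sox2cKO, and 0 and 0 in NanogcKO.

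Among assembly factors, Tmem70, needed for ATP synthase, was called in all 3 tet-off conversions (1.35, 1.27 and 0.62), and Taco1, a translational activator of mt-Co1, was lower in all 3 (-1.45, -0.75 and -2.04). Of 18 measured complex IV assembly genes 4 were higher and 2 lower in Oct4cKO, 3 and 1 in Sox2cKO, and 2 and 5 in NanogcKO, and with Dox 5 and 0, 0 and 0, and 2 and 0. Of 14 for complex I the conversion counts were 3 and 2, 1 and 1, and 3 and 1, and with Dox 0 and 5 in Sox2cKO with none called in the other lines. Of 6 for complex III the conversion counts were 1 and 2, 0 and 0, and 2 and 1. With Dox they were 3 and 2 in Oct4cKO, with none called in the other lines. Lyrm7 fell by 1.90 in the Oct4cKO conversion and had 2.12 with Dox (SE 0.45), but it was called higher in J1 L-EPSCs (1.26, SE 0.39). Ttc19 went the other way in Oct4cKO, at 0.98 in the conversion and -0.97 with Dox (SE 0.09). Of 8 nuclear regulators 1 was higher and 1 lower, 1 and 0, and 1 and 0 in the tet-off conversions, and 4 and 1, 3 and 0, and 0 and 1 with Dox. Esrra, an oestrogen-related receptor, rose in all 3 conversions (0.80, 0.79 and 1.00) and also with Dox in Sox2cKO (0.70). Ppargc1a, a coactivator of respiratory genes, rose with Dox by 3.14 in Oct4cKO and 2.39 in Sox2cKO (SE 0.82). Ppargc1b rose by 2.07 in J1 L-EPSCs (SE 0.32), and with Dox by 0.76 in Oct4cKO and 0.76 in Sox2cKO (SE 0.15). Called lower were Pprc1 in the Oct4cKO conversion (-1.02), Gabpa with Dox in Oct4cKO (-0.87) and Ppargc1b with Dox in NanogcKO (-0.73). Of 18 genes of pyruvate dehydrogenase and the TCA cycle, 3 were higher and 1 lower, 1 and 1, and 3 and 1 in the conversions, with Suclg2, a succinyl-CoA ligase subunit, higher in all 3 (0.86, 1.14 and 0.96), and Pdha1, the E1 subunit of pyruvate dehydrogenase, lower by 1.14 in Sox2cKO. In J1 L-EPSCs the counts were 0 and 1 (Idh2, -0.70), and with Dox 3 and 0, 0 and 1 (Pdha1, -0.92), and 0 and 0. Of 3 cytochromes outside the naming rule, Cyct, the testis cytochrome c, rose by 1.17 in J1 L-EPSCs and 2.21 in the NanogcKO conversion. Of the 2 mitochondrial rRNAs, mt-Rnr2 rose by 1.25, 1.55 and 1.17 in the tet-off conversions and had 0.03 in J1, although poly(A) selection captures rRNA only in part. Complex II assembly factors (4 genes), complex V assembly factors (3 genes) and mitochondrial chaperones (8 genes) had at most 1 call in each direction in any comparison.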

How the data were processed

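Per the labels and the study's methods, poly(A) RNA was made into NuGEN libraries, trimmed with Trim Galore 0.6.4, aligned with STAR 2.7.9a to mm9/NCBIM37, counted with HTSeq 0.11.2 and divided by size factors (DESeq2, given as 4.1.1 in the submitters' processing notes). The deposited values are thus a normalised signal: gene counts divided by a size factor. Whole reads were recovered in all 24 columns (100% of values within 0.05 of a whole number). HTSeq's strand setting is not given in the sources used here, and reads of near-identical copies can be lost or split.

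Each table was fitted with limma 3.58.1 (R 4.3.3) on log2(value + 1), all its groups in a single fit without a replicate block, over genes with a row sum above 1 read (21533 and 24007). Genes were called where the log2 fold change passed 0.6 and the Benjamini-Hochberg adjusted p was below 0.05. Alternatives were a pseudocount of 0.1, a mean of at least 10, TMM, scaling to nuclear reads, edgeR 4.0.16 and DESeq2 1.42.0 on the recovered reads, a replicate block, the groups of a contrast only, a threshold of 1, members of a mean of at least 1 and leaving out each library. The fit was tested on simulated data. Named were the mitochondrial members, subunits with paralogues, Sdha, Sdhb, Ndufs1, Ndufs3, Ndufa9, the 5 largest called changes in each direction per comparison and, from other lists, the called gene with the largest change; other genes were chosen after their values were seen. Members and lists were chosen with earlier results of these data known. Copies of mitochondrial DNA were found with blastn 2.17.0, with matches on 1 nuclear chromosome left out, so the copies named may not be complete. With 10807631 to 14798984 reads in the tet-off and 11612919 to 15069899 in the J1 libraries, members under about 30 reads carry wide counting error.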

Additional observations from a re-analysis of the deposited data

Results flagged for a closer look

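The values below were picked out because the change of a member differed between tet-off lines in an interaction term of the limma fit (Benjamini-Hochberg adjusted p under 0.05 over all genes and a difference beyond 0.6 on the log2 scale). Groups of 2 libraries are too small for a test of outlying samples.

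For conversion to L-EPSCs, mt-Cytb differed by -1.35 between Oct4cKO and Sox2cKO, by -0.71 between Oct4cKO and NanogcKO and by 0.64 between Sox2cKO and NanogcKO (SE 0.09). Ndufa4l2 rose less in Oct4cKO than in the other lines (-0.78 against Sox2cKO and -0.61 against NanogcKO, SE 0.18). Cox6b2 rose more in NanogcKO (-0.62 for Oct4cKO minus NanogcKO and -0.79 for Sox2cKO minus NanogcKO, SE 0.15). Of the c-ring genes, Atp5g1 rose more in Sox2cKO (-0.63 for Oct4cKO minus Sox2cKO and 0.65 for Sox2cKO minus NanogcKO, SE 0.07) and Atp5g2 more in Oct4cKO than in NanogcKO (0.61, SE 0.08). Ndufa5, a complex I subunit, differed by -0.76 (SE 0.15) between Oct4cKO and Sox2cKO. Cox7b2 differed by 1.82 (SE 0.62) between Oct4cKO and NanogcKO, with 1 read in the Oct4cKO ESCs. mt-Nd6 differed by 1.79 (SE 0.59) between the same lines, and a library far above its replicate stands behind that value. Ndufb11b differed by -1.94 and -1.05 (SE 0.37) and mt-Atp6, whose reads cannot be placed with certainty, by -0.91 (SE 0.30).

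For Dox, Ndufa4l2 fell most in Oct4cKO and least in NanogcKO, with differences of -2.05 (Oct4cKO minus Sox2cKO), -3.22 (Oct4cKO minus NanogcKO) and -1.17 (Sox2cKO minus NanogcKO, SE 0.18). Cox7a1 fell more in Oct4cKO than in Sox2cKO (-1.05) and NanogcKO (-1.12, SE 0.17). Cox6b2 fell in Oct4cKO and Sox2cKO but not past the test in NanogcKO, with differences of -1.40 and -1.21 (SE 0.15). mt-Cytb rose more in Oct4cKO than in Sox2cKO (1.06) and NanogcKO (0.96, SE 0.09), and mt-Nd4 (0.73, SE 0.19) and mt-Nd1 (0.61, SE 0.06) more than in Sox2cKO. Between Oct4cKO and NanogcKO, Atp5g3 differed by 0.77 (SE 0.05), Ndufs7 by 0.70 (SE 0.11), Cox7a2l by 0.60 (SE 0.09), mt-Atp6 by 0.88 (SE 0.30) and Ndufb11b by -1.03 (SE 0.37). Between Sox2cKO and NanogcKO, Atp5j2 differed by -0.71 (SE 0.08) and Ndufb11b by -1.36 (SE 0.37). The ESC and trophoblast markers also moved by different amounts in these lines, and their part in the differences was not tested.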

How the results depend on the processing

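No result changed direction under any alternative run. Counts of called members fell with a threshold of 1 on the log2 fold change: to 1 in each J1 comparison, to 7, 3 and 5 in the Oct4cKO, Sox2cKO and NanogcKO conversions, to 5 each with Dox in Sox2cKO and NanogcKO, and for differences between lines to 2, 3 and 0 for conversion and to 3 (Oct4cKO minus Sox2cKO) and 4 (Oct4cKO minus NanogcKO) for Dox. In L-EPSCs against D-EPSCs, 1 member was called when only the groups of the contrast were fitted. edgeR called 5 differences of the conversion between Sox2cKO and NanogcKO. Scaling to reads on nuclear genes moved the nuclear medians to 0.15 (D-EPSC minus ESC), 0.33 (L-EPSC minus ESC), 0.21 (L-EPSC minus D-EPSC), 0.24 and 0.35 (Oct4cKO and Sox2cKO conversion), -0.23 and -0.085 (Dox in Sox2cKO and NanogcKO), and the mitochondrial medians to 0.18 (D-EPSC minus ESC) and 0.16 (L-EPSC minus D-EPSC). TMM gave nuclear medians of 0.31 and 0.41, and edgeR 0.31, 0.41 and 0.30, for the conversions of Oct4cKO, Sox2cKO and (edgeR) NanogcKO. Of 2 alternatives chosen after seeing the data, leaving out the 3 libraries of high mt-Nd6 put the mitochondrial median of the Oct4cKO conversion at -0.40, and keeping to members outside the chromosome 1 copy put it at -0.27, that of the NanogcKO conversion at -0.49 and that of Dox in Oct4cKO at 0.82. The causes were not tested.

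With 1 library left out, where the lone library of a group is assumed to vary like the others, the counts ranged from 1 to 4 (D-EPSC minus ESC), 8 to 11 (L-EPSC minus ESC) and 1 to 2 (L-EPSC minus D-EPSC), and the difference of the conversion between Oct4cKO and NanogcKO from 3 to 6. Nuclear medians ranged from 0.067 to 0.086 (D-EPSC minus ESC), 0.29 to 0.31 (L-EPSC minus ESC), 0.38 to 0.40 and 0.23 to 0.31 (Sox2cKO and NanogcKO conversion), -0.14 to -0.06 and -0.27 to -0.24 (Dox in Oct4cKO and Sox2cKO). Mitochondrial medians ranged from 0.29 to 0.39 (L-EPSC minus ESC), 0.14 to 0.20 (L-EPSC minus D-EPSC), -0.67 to -0.40 (Oct4cKO conversion), 0.85 to 0.94 and 0.39 to 0.57 (Dox in Oct4cKO and Sox2cKO).

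The replicate numbers did not pair the libraries (correlations of deviations from -0.0076 to 0.026 over 3 group pairs in J1 and from -0.062 to 0.063 over 36 in the tet-off table). With the replicate block the counts of called members were 4, 13 and 2 in J1, 19, 20 and 15 in the conversions and 11, 12 and 9 with Dox. DESeq2 called 4, 13 and 2, then 19, 18 and 15, and 11, 12 and 9. Members called in the main fit were followed through the alternatives, where 1224 values kept the call and 96 lost it. Members not called in the main fit were not followed, so gained calls are not in these numbers. Calls could be gained: the NanogcKO conversion had 14 in the main fit and 17 in edgeR. Depth limits Cox4i2, Cox7b2, mt-Co2, mt-Atp6 and mt-Co3, which had few reads per library.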

Other observations

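Ndufa13 and Ndufb7 moved little in J1 (0.03 and 0.02 from ESCs to L-EPSCs), where ESCs already held 1199 and 1244 and 1071 and 1132 normalised reads, and rose in the tet-off conversions from 706 to 776 and from 492 to 683 reads in ESCs. The tables were normalised separately, so levels set across them are a description. Cox8b, the muscle form of subunit 8, was counted in 4 of the 18 tet-off libraries, at 0.867 to 2.16 normalised reads, and stayed below the mean required of a member.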
